A study of Mus musculus with 9 samples.

Results

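The genes described here carry metal ions across membranes or store iron. They are the protein-coding genes of the solute carrier families Slc11, Slc30, Slc31, Slc39, Slc40 and Slc41, chosen by symbol in GENCODE release M21, together with Tfrc, Fth1 and Ftl1. The rule gave 35 of the 54232 gene rows: 6 genes of iron, 14 ZIP importers (Slc39), 10 ZnT exporters (Slc30), 2 copper transporters (Slc31) and 3 magnesium transporters (Slc41). Their mRNA was measured by poly(A) RNA sequencing in wild-type (WT) mouse embryonic stem cells, pluripotent cells of the early embryo, that were differentiating as embryoid bodies. There are 3 libraries for each group, EBD2, EBD5 or EBD6, and no drug or other allele is named for any of them. The labels do not say what the number in a group's name stands for, nor which cell line was used. The groups are taken below in the order of that number, and the first step is EBD5 against EBD2 and the later step EBD6 against EBD5, with no time meant by either.

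Iron enters most cells bound to transferrin, through the transferrin receptor, and is moved on to the cytosol by Slc11a2. Ferritin, a shell of heavy chains (Fth1) and light chains (Ftl1), stores it, and ferroportin (Slc40a1) exports it. ZIP proteins bring zinc, and for some members manganese or iron, into the cytosol from outside the cell or from organelles, and ZnT proteins carry zinc out of the cytosol. Visceral endoderm, which forms on the outside of embryoid bodies, is the tissue that takes up and passes on nutrients in the early mouse embryo.

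Several of the iron genes share a hairpin in their untranslated regions (UTRs), the iron-responsive element, which iron regulatory proteins bind. In a 5′ UTR the bound hairpin holds back translation, and in the 3′ UTR of Tfrc it protects the mRNA from decay. The sites are shown because Tfrc, Slc40a1, Fth1 and Ftl1, genes of iron uptake, export and storage, each hold at least 1. They were found on the transcript strand as a C, any 5 bases, the loop CAGTGN and 5 bases that pair with the first 5, G with T allowed. Capitals mark the loop. All are from GENCODE M21 transcripts.
Tfrc 3′ UTR, first site: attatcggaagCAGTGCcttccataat
Tfrc 3′ UTR, next site: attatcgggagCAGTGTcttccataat
Tfrc 3′ UTR, next site: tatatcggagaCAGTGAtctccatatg
Tfrc 3′ UTR, last site: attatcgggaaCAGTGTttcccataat
Slc40a1 5′ UTR: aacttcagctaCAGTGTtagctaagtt
Fth1 5′ UTR: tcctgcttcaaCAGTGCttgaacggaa
Ftl1 5′ UTR: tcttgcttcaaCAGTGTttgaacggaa
Of the 35 genes, 3 matched in a 5′ UTR and 1 in a 3′ UTR. Hairpins that depart from this pattern were not searched for, so elements in other genes, or further ones in Tfrc, are not excluded. The same search matched 31 of 20582 protein-coding genes (0.151%) in a 5′ UTR and 129 of 20962 (0.615%) in a 3′ UTR. The Tfrc sites begin at bases 889, 1268, 1333 and 1380 of a 3′ UTR of 2458 bases. The letters describe the transcripts and say nothing of protein binding in these cells.

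Libraries held between 5454268 and 11704761 expected counts. EBD2 replicates 1 and 2, and EBD6 replicates 2 and 3, could not be told from sampling noise in their counts (chi-square per gene 0.949 and 1.01, p = 0.999995 and 0.169), so the libraries of each such pair were added together and treated as a single sample. The comparisons thus rest on 2 samples of EBD2, 3 of EBD5 and 2 of EBD6, and every mean ± SD below has those n. Leaving out EBD2 replicate 3 or EBD6 replicate 1 therefore leaves that group with 1 sample. Leaving out a library of a summed pair only lowers the depth of that sample. In the lists of values the summed pair comes first for EBD2 and last for EBD6. Whether the replicates are separate cultures is not given, and the p-values reflect the spread of these samples alone, which could be technical. The EBD5 libraries stood apart in RNA make-up: ribosomal RNA genes took 0.726% to 0.811% of their counts, against at most 0.0207% in EBD2 and 0.0247% in EBD6. Processed pseudogenes took 0.986% to 0.997% there, against at most 0.280% in EBD2 and 0.165% in EBD6, and the protein-coding share was 94.8% to 95.2%, against at least 98.0% and 98.3%. The labels give 1 extraction and library protocol for all groups, and a difference in preparation cannot be told apart from the group. Over 13746 genes the log2 fold change also moved with the GC content of the gene, with Spearman's rho of -0.37 for EBD5 against EBD2 and 0.56 for EBD6 against EBD5. The part of these differences in the results was not tested. Values with the median of genes of like GC content and length removed are given below where they turn a called direction or move a called value by over 1.5-fold. For partner genes this holds only for the values cited. This removal was not run on the family sums. Which library ran on which of the 2 sequencer models is not given, so instrument and group cannot be told apart.

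Levels are in CPM, counts scaled to a common library size after TMM normalisation, which uses a trimmed mean of M values. Of the 35 genes, 32 had enough counts to be tested by edgeR's quasi-likelihood test, and a gene is called at a Benjamini-Hochberg adjusted p under 0.05 over all 16168 genes tested. EBD5 against EBD2 called 17 of the 32 higher and 6 lower, where 70.0% of all tested genes were called (34.9% higher and 35.1% lower). EBD6 against EBD5 called 17 higher and 10 lower, where 70.2% of all tested genes were called (36.9% higher and 33.3% lower). EBD6 against EBD2 called 23 higher and 4 lower, where 66.1% of all tested genes were called (33.8% higher and 32.3% lower). The share of metal genes called was thus close to that of all genes at the first step, and the groups differ so widely that a call alone sets no gene apart. Median log2 fold changes of the 32 genes were 0.28, 0.28 and 0.48 in these 3 comparisons, beside -0.01, 0.04 and 0.01 for all tested genes. A stricter test, against a fold of 1.5, called 13 metal genes from EBD2 to EBD5, 11 higher and 2 lower (34.7% of all genes, 18.4% higher and 16.3% lower). It called 12 from EBD5 to EBD6, 9 higher and 3 lower (32.9% of all genes, 17.6% higher and 15.3% lower). It called 13 from EBD2 to EBD6, 12 higher and 1 lower (30.4% of all genes, 16.4% higher and 14.0% lower). In bulk RNA, fewer cells of a type and less RNA per cell cannot be told apart.

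The genes of iron export and storage, Slc40a1, Ftl1 and Fth1, rose from EBD2 to EBD5 and fell from EBD5 to EBD6. Ferroportin gained 7.74-fold and stayed above EBD2 in EBD6, while Fth1 in EBD6 was not called different from EBD2. Tfrc and Slc11a2, which serve uptake, moved by less than 1.5-fold. Slc11a1, a metal transporter of phagosomes in macrophages, went the other way, falling in EBD5 and rising in EBD6.

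Slc40a1 (ENSMUSG00000025993, mm10 chr1:45908068-45926523, minus strand) encodes ferroportin, the exporter of cellular iron. It stood at 21.7 and 17.3 CPM in EBD2, at 151, 161 and 153 CPM in EBD5 and at 76.6 and 85.2 CPM in EBD6. Every EBD5 sample lay above every EBD6 sample, and every EBD6 sample above every EBD2 sample. The log2 fold change was 2.95 ± 0.10 (SE) from EBD2 to EBD5 (edgeR adjusted p = 1.61e-09) and -0.92 ± 0.08 from EBD5 to EBD6 (edgeR adjusted p = 1.66e-06). EBD6 remained 4.08-fold above EBD2 (edgeR adjusted p = 3.37e-08).

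Ftl1 (ENSMUSG00000050708, mm10 chr7:45457944-45459884, minus strand) encodes the ferritin light chain. It stood at 261 and 281 CPM in EBD2, at 801, 769 and 769 CPM in EBD5 and at 311 and 340 CPM in EBD6. The 3 groups did not overlap, and EBD5 was the highest. The log2 fold change was 1.53 ± 0.07 at the first step (edgeR adjusted p = 2.51e-08) and -1.26 ± 0.07 at the next (edgeR adjusted p = 1.21e-07). With the medians of like GC content and length removed, these values were 2.22 and -2.14. A microRNA gene, Gm22133, shares 109 exon bases with Ftl1 on the same strand. It was listed at 29.7 ± 1.62 CPM in EBD2, at 0 in all EBD5 samples and at 34.0 ± 2.46 CPM in EBD6. With its counts added to those of Ftl1 the means were 301, 779.9 and 359 CPM and no call changed.

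Fth1 (ENSMUSG00000024661, mm10 chr19:9980598-9985098, plus strand) encodes the heavy chain, which oxidises iron for storage. It stood at 197 and 245 CPM in EBD2, at 388, 454 and 383 CPM in EBD5 and at 245 and 205 CPM in EBD6. EBD5 lay above both other groups, which overlapped. Fth1 rose 1.86-fold (edgeR adjusted p = 3.93e-05) and then fell by 0.87 on the log2 scale (edgeR adjusted p = 4.32e-05). EBD6 and EBD2 did not pass the test for a difference (log2 fold change 0.02 ± 0.12, edgeR adjusted p = 0.885). Many ferritin pseudogenes share sequence with both chains, and adding their counts changed no call.

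Tfrc (ENSMUSG00000022797, mm10 chr16:32608920-32632794, plus strand) encodes the transferrin receptor. It stood at 187 and 205 CPM in EBD2, at 229, 241 and 245 CPM in EBD5 and at 264 and 241 CPM in EBD6. EBD2 was the lowest group, and EBD5 and EBD6 overlapped. The rise from EBD2 to EBD5 was 1.22-fold (edgeR adjusted p = 0.00361), and with the medians of like GC content and length removed the log2 value turned from 0.29 to -0.091. Slc11a2 stood at 43.6 and 44.4 CPM in EBD2, at 67.4, 60.2 and 60.1 CPM in EBD5 and at 53.2 and 70.2 CPM in EBD6. It rose 1.42-fold at the first step (edgeR adjusted p = 0.00219), while EBD5 and EBD6 overlapped.

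Slc11a1 was low throughout, at 6.82 and 5.81 CPM in EBD2, at 2.7, 2.84 and 3.21 CPM in EBD5 and at 5.11 and 6.45 CPM in EBD6. EBD5 was below both other groups, with log2 fold changes of -1.13 ± 0.23 (edgeR adjusted p = 0.00102) and then 1.03 ± 0.22 (edgeR adjusted p = 0.00151). Slc11a1 is itself known from macrophages, and the 8 macrophage markers summed to 30.1 to 31.5 CPM in EBD2, 15.5 to 19.5 CPM in EBD5 and 23.8 to 34.6 CPM in EBD6. Adgre1 was at 0 in every sample, Lyz2 at 0 in EBD2 and EBD5, and Cx3cr1 at 0 in EBD5. Of the 3 macrophage markers tested, 2 fell from EBD2 to EBD5, and from EBD5 to EBD6 1 rose and 1 fell. Their part in the Slc11a1 values was not tested.

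**Figure D1:**
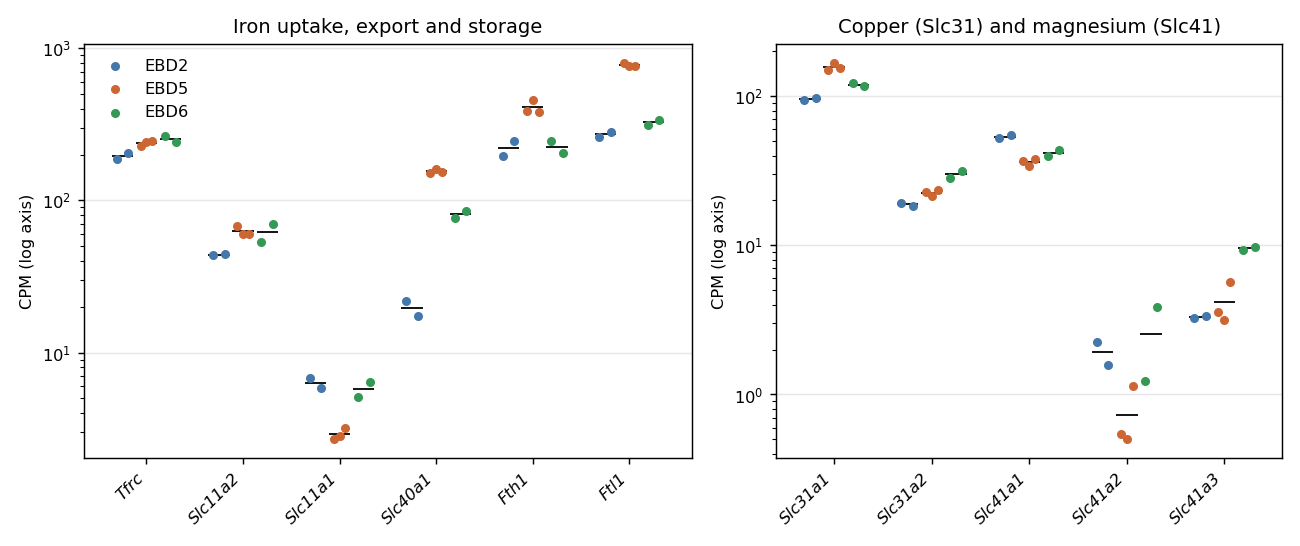
Level in CPM (log axis) of the iron genes (left) and of the copper and magnesium transporters (right), each point 1 sample and each line the mean of a group. Slc40a1, Fth1 and Ftl1 are highest in EBD5, with Slc40a1 between 151 and 161 CPM there, while Slc11a1 and Slc41a1 are lowest in EBD5.

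The largest fold change of the set was in a zinc importer, and 11 of the 13 tested ZIP genes were called higher in EBD6 than in EBD2, with 1 lower (33.8% and 32.3% of all genes). From EBD2 to EBD5, 7 of the 13 tested ZIP genes rose, 1 fell and 5 did not pass the test (34.9% of all genes rose and 35.1% fell). Slc39a8 went from among the lowest metal genes to among the highest, and Slc39a5, Slc39a1, Slc39a2 and Slc39a4 were also called higher in EBD5 than in EBD2. From EBD5 to EBD6, 9 rose and 4 fell (36.9% and 33.3% of all genes).

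Slc39a8 (ENSMUSG00000053897, mm10 chr3:135825279-135888572, plus strand) encodes ZIP8, which carries zinc, manganese and iron. It stood at 1.5 and 1.58 CPM in EBD2, at 137, 156 and 136 CPM in EBD5 and at 115 and 108 CPM in EBD6. EBD2 was lower than every other sample by a wide margin. The rise to EBD5 was 93.0-fold (log2 6.54 ± 0.14, edgeR adjusted p = 9.80e-11), and 177 of the 16168 tested genes had a larger log2 fold change. The later fall of 0.37 on the log2 scale (edgeR adjusted p = 0.000784) turned to 0.15 with the medians of like GC content and length removed. Visceral endoderm markers moved in the same samples. The 14 of them summed to 328 to 330 CPM in EBD2, 3397 to 3465 CPM in EBD5 and 1787 to 1830 CPM in EBD6. All 14 rose from EBD2 to EBD5 (34.9% of all genes rose), and of them only Apoa4 was at 0 in EBD2. From EBD5 to EBD6 the list was split, with 6 called higher and 7 lower (36.9% and 33.3% of all genes). Its median log2 fold change at that step was -0.07. The 11 primitive and parietal endoderm markers summed to 873 to 876 CPM in EBD2, 3484 to 3592 CPM in EBD5 and 4038 to 4193 CPM in EBD6. The 6 definitive endoderm markers summed to 12.6 to 13.0 CPM in EBD2, 109 to 114 CPM in EBD5 and 124 to 144 CPM in EBD6. The 9 trophoblast markers summed to 30.5 to 39, 148 to 149.9 and 259 to 263 CPM, with Cdx2, Elf5 and Prl3d1 at 0 in EBD2. The part of these tissues in the levels of Slc39a8, Slc40a1 and the other metal genes was not tested. The 12 pluripotency markers, which define the labelled cell type, summed to 1970 to 2155 CPM in EBD2, 1776 to 1784 CPM in EBD5 and 1840 to 1959 CPM in EBD6. Single markers moved in both directions. EBD5 against EBD2 called 5 higher and 4 lower (34.9% and 35.1% of all genes), and EBD6 against EBD5 called 6 higher and 4 lower (36.9% and 33.3%).

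Slc39a5, a zinc importer of the basolateral membrane, stood at 0.665 and 1.06 CPM in EBD2, at 4.85, 5.01 and 3.02 CPM in EBD5 and at 7.22 and 10.4 CPM in EBD6. It rose at each step without overlap, 5.34-fold (edgeR adjusted p = 0.000233) and then 2.12-fold (edgeR adjusted p = 0.00235). With the medians of like GC content and length removed the first log2 value went from 2.42 to 3.23 and the next from 1.09 to 0.09. Slc39a4, the gene of intestinal zinc uptake, stood at 28.9 and 31.9 CPM in EBD2, at 52.0, 53.3 and 50.4 CPM in EBD5 and at 86.0 and 91.2 CPM in EBD6. Its log2 fold changes were 0.79 ± 0.08 (edgeR adjusted p = 8.62e-06) and 0.78 ± 0.07 (edgeR adjusted p = 3.22e-06), and the latter was 0.11 with those medians removed.

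Slc39a1, a zinc importer of the plasma membrane, stood at 15.1 and 16.7 CPM in EBD2, at 58.4, 57.5 and 57.0 CPM in EBD5 and at 42.5 and 43.6 CPM in EBD6. It followed the course of ferroportin, up 3.66-fold (edgeR adjusted p = 2.06e-08) and then down by 0.42 on the log2 scale (edgeR adjusted p = 0.00043). Slc39a14, which carries zinc, manganese and iron that is not bound to transferrin, stood at 116 and 123 CPM in EBD2, at 172, 169 and 171 CPM in EBD5 and at 146 and 152 CPM in EBD6. The 3 groups did not overlap. It rose 1.43-fold (edgeR adjusted p = 1.34e-05) and then fell by 0.19 on the log2 scale (edgeR adjusted p = 0.00937), a fall that was not called without the filter on low counts (edgeR adjusted p = 0.122).

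Slc39a3 and Slc39a11 rose at the later step. Slc39a3 stood at 3.99 and 3.35 CPM in EBD2, at 5.39, 5.01 and 5.48 CPM in EBD5 and at 12 and 16.8 CPM in EBD6, a 2.83-fold rise from EBD5 (edgeR adjusted p = 3.03e-05). Its log2 value was 1.5, and 0.56 with the medians of like GC content and length removed. Slc39a11 rose 1.76-fold, from 18.9 ± 1.40 CPM in EBD5 to 33.2 ± 1.32 CPM in EBD6 (edgeR adjusted p = 3.11e-05), and its values in EBD2 and EBD5 overlapped. Slc39a9, of the Golgi membrane, went from 46.5 ± 1.26 to 66.2 ± 2.68 CPM (edgeR adjusted p = 6.17e-05), and Slc39a6 from 42.5 ± 2.24 to 57.4 ± 0.681 CPM (edgeR adjusted p = 0.000525). Slc39a9 shares 459 exon bases with Erh on the other strand, and the strand setting of the counting is not given in the sources used here.

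Slc39a10 was the 1 ZIP gene called lower in EBD6 than in EBD2. It stood at 154 and 157 CPM in EBD2, at 144, 152 and 144 CPM in EBD5 and at 115 and 107 CPM in EBD6, and its fall of 0.50 on the log2 scale from EBD2 to EBD6 passed the test (edgeR adjusted p = 4.14e-05). Slc39a13, a transporter of early secretory vesicles, stood at 16.5 and 14.1 CPM in EBD2, at 8.63, 8.36 and 9.25 CPM in EBD5 and at 13.6 and 18.1 CPM in EBD6. EBD5 was below both other groups. Its log2 value of 0.91 from EBD5 to EBD6 (edgeR adjusted p = 0.000389) turned to -0.18 with the medians of like GC content and length removed. It shares 215 exon bases with Psmc3 on the other strand. Psmc3 had means of 176, 129 and 185 CPM in EBD2, EBD5 and EBD6, and its part was not tested.

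Slc39a7, which releases zinc from the endoplasmic reticulum, rose from 121 ± 4.59 CPM in EBD5 to 156 ± 13.4 CPM in EBD6 (edgeR adjusted p = 0.000719). That log2 value of 0.36 turned to -0.31 with the medians of like GC content and length removed, and a transcript gene, Gm20427, overlaps 2084 of its 2584 exon bases. The smaller rise of Slc39a7 from EBD2 (log2 0.20, edgeR adjusted p = 0.0275) was not called without EBD5 replicate 1 or 3 (edgeR adjusted p = 0.0574 and 0.0817). Without EBD2 replicate 3, which leaves 1 EBD2 sample, its log2 value was 0.15. Slc39a2 was near 1 CPM in EBD2 and rose to 2.16 ± 0.586 CPM in EBD5 and 3.66 ± 0.555 CPM in EBD6. The rise to EBD5 (edgeR adjusted p = 0.00705) was not called by DESeq2 (DESeq2 adjusted p = 0.0531). Its rise from EBD2 to EBD6 was 4.39-fold (edgeR adjusted p = 0.000317). Its step from EBD5 to EBD6 (edgeR adjusted p = 0.0434) was not called without EBD6 replicate 1, EBD5 replicate 1 or EBD5 replicate 2 (edgeR adjusted p = 0.128, 0.156 and 0.137) or without EBD2 replicate 1 or 3 (edgeR adjusted p = 0.0509 and 0.0619), nor by DESeq2 (DESeq2 adjusted p = 0.271). Slc39a12, known from brain, had 0 counts in every library, which allows at most 0.169 CPM in EBD2, 0.178 CPM in EBD5 and 0.103 CPM in EBD6 (3 counts over the group, counting error only).

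**Figure D2:**
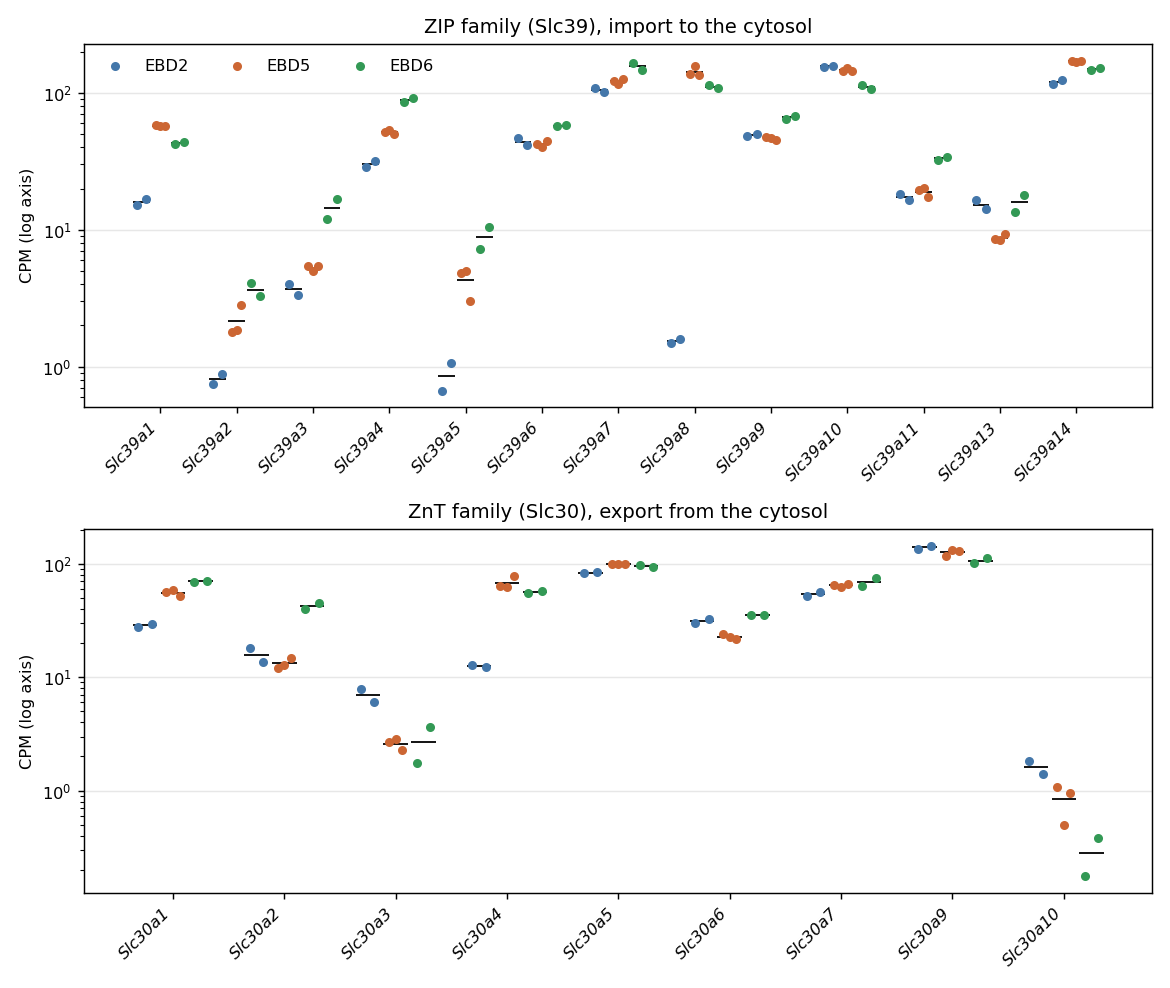
Level in CPM (log axis) of the ZIP importers (top) and ZnT exporters (bottom), each point 1 sample and each line the mean of a group, without Slc39a12 and Slc30a8, which had 0 counts. Slc39a8 lies near 1.5 CPM in EBD2 and above 100 CPM in the other groups, and Slc30a4 near 12.6 CPM in EBD2 and above 55 CPM in the others.

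Among the ZnT exporters, 4 of the 8 tested rose from EBD2 to EBD5, 2 fell and 2 did not pass the test (34.9% of all genes rose and 35.1% fell). Slc30a4 and Slc30a1 led the rise, and Slc30a2 rose at the later step. From EBD5 to EBD6, 3 rose, 2 fell and 3 did not pass the test (36.9% of all genes rose and 33.3% fell).

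Slc30a4 (ENSMUSG00000005802, mm10 chr2:122681233-122702663, minus strand) encodes ZnT4, known for loading zinc into milk. It stood at 12.9 and 12.3 CPM in EBD2, at 63.3, 62.7 and 78.6 CPM in EBD5 and at 55.5 and 58 CPM in EBD6. The rise was 5.36-fold (edgeR adjusted p = 3.70e-08). The later log2 value of -0.26 (edgeR adjusted p = 0.0362) was not called without EBD5 replicate 3 or EBD6 replicate 2 (edgeR adjusted p = 0.123 and 0.0626), and turned to 0.085 with the medians of like GC content and length removed. It was -0.21 without EBD6 replicate 1 and -0.25 without EBD2 replicate 3, fits that leave 1 sample in that group.

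Slc30a1 encodes ZnT1, the zinc exporter of the plasma membrane. It stood at 27.8 and 29.6 CPM in EBD2, at 55.9, 58.7 and 52.3 CPM in EBD5 and at 69.8 and 71.0 CPM in EBD6. The groups did not overlap, and it rose 1.95-fold (edgeR adjusted p = 1.98e-06) and then 1.27-fold (edgeR adjusted p = 0.00165). Slc30a2, which fills secretory vesicles with zinc, stood at 18.1 and 13.6 CPM in EBD2, at 12, 12.9 and 14.7 CPM in EBD5 and at 40.2 and 44.7 CPM in EBD6. EBD2 and EBD5 overlapped, and EBD6 stood above both, 3.24-fold above EBD5 (edgeR adjusted p = 9.04e-07).

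Slc30a3, the zinc loader of synaptic vesicles, fell from 7.82 and 5.99 CPM in EBD2 to 2.7, 2.84 and 2.27 CPM in EBD5, and stood at 1.76 and 3.61 CPM in EBD6. Its log2 fold change at the first step was -1.43 ± 0.30 (edgeR adjusted p = 0.00122), and -0.61 with the medians of like GC content and length removed. Slc30a6, which works as a pair with Slc30a5 in the secretory pathway, fell from 31.3 ± 1.56 to 22.8 ± 1.01 CPM (edgeR adjusted p = 0.00132) and then rose to 35.1 ± 0.109 CPM (edgeR adjusted p = 8.78e-05). Its partner Slc30a5 rose from 83.3 ± 1.54 to 99.5 ± 0.679 CPM at the first step (edgeR adjusted p = 0.00226). The genes of this pair thus moved in opposite directions there.

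Slc30a7, of the Golgi, rose from 54.2 ± 3.76 to 64.7 ± 1.79 CPM (edgeR adjusted p = 0.0216), a call lost without EBD5 replicate 1 or 3 (edgeR adjusted p = 0.0528 and 0.0541). Slc30a9 fell from 126 ± 8.13 CPM in EBD5 to 107 ± 6.64 CPM in EBD6 (edgeR adjusted p = 0.014), a call lost without the filter on low counts (edgeR adjusted p = 0.0552). Its log2 value was -0.23, and -0.16 without EBD6 replicate 1, which leaves 1 EBD6 sample. With the medians of like GC content and length removed that log2 value turned from -0.23 to 0.025. Slc30a10, a manganese exporter, had too few counts for the test, with 30 counts in the EBD2 samples, 14 in EBD5 and 10 in EBD6. Its levels were 1.62 ± 0.298, 0.841 ± 0.302 and 0.279 ± 0.145 CPM. Slc30a8, of insulin granules, had 0 counts in every library, under the same limits as Slc39a12.

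Of the 2 copper transporters, Slc31a1 was highest in EBD5 and Slc31a2 in EBD6. Slc31a1, the high-affinity copper importer, stood at 93.9 and 96.7 CPM in EBD2, at 151, 167 and 155 CPM in EBD5 and at 123 and 116 CPM in EBD6. The groups did not overlap, with a rise of 1.66-fold (edgeR adjusted p = 2.47e-06) and then a fall of 0.41 on the log2 scale (edgeR adjusted p = 0.000149). Its relative Slc31a2 stood at 19.3 and 18.5 CPM in EBD2, at 22.7, 21.6 and 23.6 CPM in EBD5 and at 28.4 and 31.7 CPM in EBD6. Its later step passed the test (1.35-fold, edgeR adjusted p = 0.0024), and a DESeq2 test of that step did not (DESeq2 adjusted p = 0.0541). The first step did not pass (log2 0.25, edgeR adjusted p = 0.056), and it passed with DESeq2 size factors, protein-coding library sizes or 9 separate libraries (edgeR adjusted p = 0.0358, 0.022 and 0.0215).

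The magnesium transporters were lowest in EBD5 or overlapped there with the lowest group. Slc41a1, which exchanges magnesium for sodium, stood at 52.6 and 54.8 CPM in EBD2, at 37.0, 34.1 and 38.2 CPM in EBD5 and at 39.99 and 43.6 CPM in EBD6. It fell 1.47-fold (edgeR adjusted p = 0.000129). Its later log2 value of 0.21 (edgeR adjusted p = 0.0403) turned to -0.27 with the medians of like GC content and length removed. That call was also lost without EBD5 replicate 1 or 2 (edgeR adjusted p = 0.101 and 0.175), EBD6 replicate 2 (0.067) or EBD2 replicate 2 (0.0553). Without EBD2 replicate 3, which leaves 1 EBD2 sample, the log2 value was 0.21. Slc41a3, of mitochondria, stood at 3.24 and 3.35 CPM in EBD2, at 3.60, 3.18 and 5.67 CPM in EBD5 and at 9.34 and 9.76 CPM in EBD6. It rose 2.33-fold from EBD5 (edgeR adjusted p = 0.00049), with a log2 value of 1.22, and of 0.56 with those medians removed.

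Slc41a2 had few counts, at 2.25 and 1.58 CPM in EBD2, at 0.539, 0.501 and 1.13 CPM in EBD5 and at 1.23 and 3.86 CPM in EBD6. It rose 4.12-fold from EBD5 to EBD6 (edgeR adjusted p = 0.00437), although the EBD6 samples differed widely. Its fall to EBD5 (log2 -1.47 ± 0.58, edgeR adjusted p = 0.0417) was not called without EBD2 replicate 1 (edgeR adjusted p = 0.107) or without EBD5 replicate 1 or 2 (edgeR adjusted p = 0.112 and 0.111), nor by DESeq2 or limma-voom (adjusted p = 0.116 and 0.0564). Without EBD2 replicate 3, which leaves 1 EBD2 sample, the log2 value was -1.64.

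The 2 steps were then compared directly, by testing for each gene whether its log2 fold change from EBD5 to EBD6 differed from that from EBD2 to EBD5. The difference passed the test for 23 of the 32 genes, where 69.6% of all tested genes passed it. Against a fold of 1.5 it passed for 13, 6 with a positive and 7 with a negative difference, where 49.4% of all genes passed (24.7% in each direction). Slc39a8 (difference in log2 fold change -6.91 ± 0.18, edgeR adjusted p = 3.49e-10), Slc40a1 (-3.88 ± 0.14, edgeR adjusted p = 3.57e-09) and Ftl1 (-2.78 ± 0.12, edgeR adjusted p = 9.28e-09) lay at one end. Slc41a2 (3.51 ± 0.99, edgeR adjusted p = 0.00826), Slc11a1 (2.17 ± 0.40, edgeR adjusted p = 0.000535) and Slc30a2 (2.0 ± 0.25, edgeR adjusted p = 2.92e-05) lay at the other. Without EBD5 replicate 3 the value of Slc41a2 was 4.42. Slc39a4 had the smallest difference (-0.010 ± 0.13, edgeR adjusted p = 0.974). With the medians of like GC content and length removed, the values were -6.03 for Slc39a8, -3.25 for Slc40a1, -4.45 for Ftl1, 1.45 for Slc11a1 and -1.14 for Slc39a4. Those of Slc39a13, Slc41a1 and Slc30a4 went from 1.73 to 0.15, from 0.77 to 0.081 and from -2.68 to -2.05. The removal turned the sign of 4 of the 23 called differences, those of Slc39a3 (1.01 to -0.54), Slc39a11 (0.70 to -0.020), Slc30a3 (1.65 to -0.15) and Slc30a5 (-0.31 to 0.31). Both steps share the EBD5 samples, so a value that is high or low in EBD5 alone enters them with opposite sign.

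**Figure D3:**
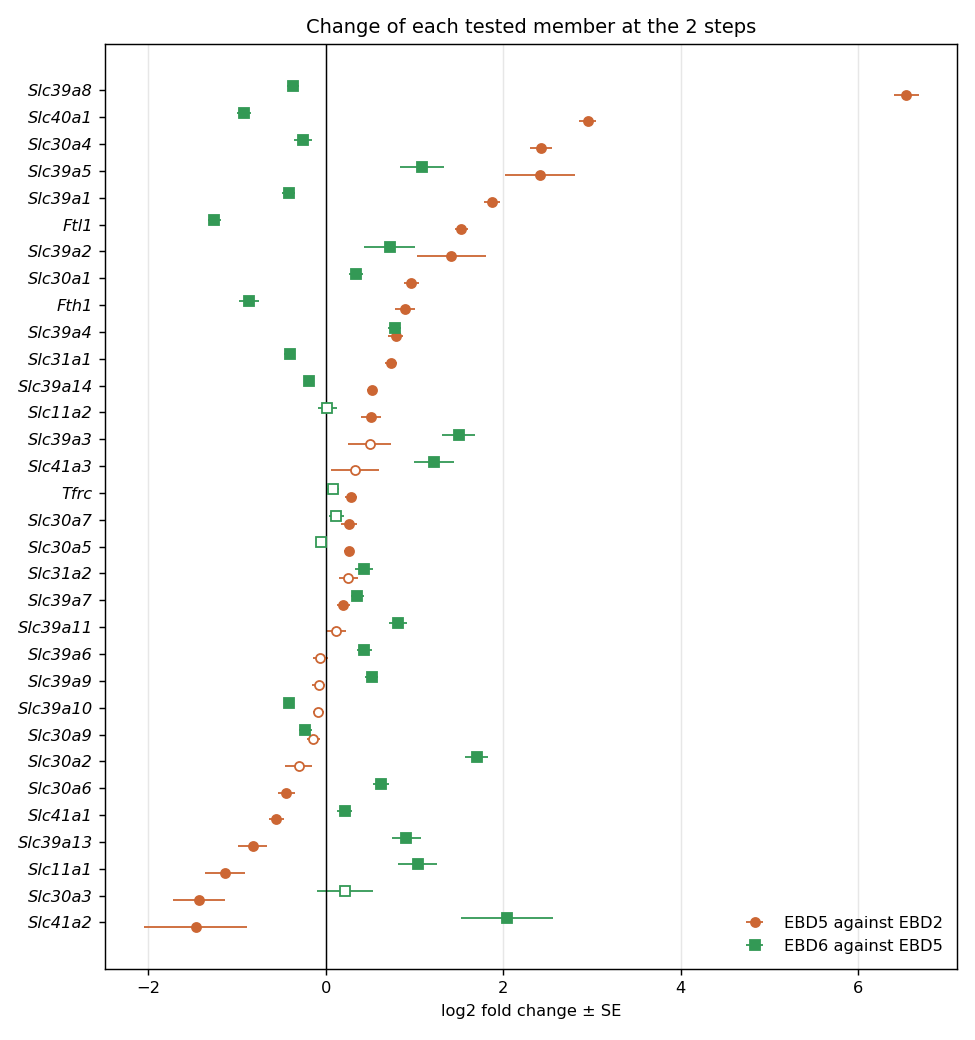
Log2 fold change ± SE of each of the 32 tested genes from EBD2 to EBD5 (circles) and from EBD5 to EBD6 (squares), with filled symbols for calls at an adjusted p under 0.05 by edgeR's quasi-likelihood test. Slc39a8 rose by 6.54 and Slc40a1 by 2.95 on the log2 scale at the first step, and both fell at the next, by 0.37 and 0.92.

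Per kilobase of a gene's merged annotated exons, the mean levels of both ferritin chains lay above those of every transporter. Merged exons can be longer than the mRNA a cell makes, so levels, ranks and shares compared between genes depend on the annotation. They came to 3469 bases for Fth1 and 1340 for Ftl1, whose mean levels in EBD2 were 221 and 271 CPM. Ftl1 stood at 202, 582 and 243 CPM per kb in EBD2, EBD5 and EBD6 and was the highest of the set in each group. Fth1 followed at 63.7, 118 and 64.8 CPM per kb, and its range overlapped that of Slc39a7, the next gene, in EBD6. Slc39a7 at 40.8, 47.0 and 60.5 CPM per kb and Tfrc at 31.7, 38.5 and 40.8 CPM per kb came after them, and Tfrc and the next gene, Slc31a1, overlapped in EBD5. Slc39a8 moved from rank 33 of 35 in EBD2 to rank 8 in EBD5 and rank 10 in EBD6, and Slc40a1 from rank 25 to rank 9 and then 20. In EBD5 and EBD6 both genes overlapped their neighbours, so these ranks are approximate. In EBD2 the genes from rank 7 to rank 14, Slc30a5 to Slc31a2, each overlapped their neighbour, so their order is not resolved.

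The summed level of the ZIP family rose at each step, from 120 ± 1.17 to 173 ± 0.82 and 196 ± 1.60 CPM per kb (means of EBD2, EBD5 and EBD6). That of the ZnT family went from 52.7 ± 0.386 to 64.9 ± 1.56 and 76.2 ± 2.86 CPM per kb. At the later step 9 tested ZIP genes rose and 4 fell. Slc39a7 went from 47.0 to 60.5 and Slc39a4 from 16.7 to 28.5 CPM per kb. With the medians of like GC content and length removed, the log2 values of these 2 genes were -0.31 and 0.11. The sums were not redone with those medians removed. The make-up of both families shifted as well. Slc39a8 made up 0.168% ± 0.0084 of the ZIP sum in EBD2, 10.8% ± 0.818 in EBD5 and 7.39% ± 0.249 in EBD6. Over the same groups Slc39a10 went from 21.3% ± 0.48 to 13.9% ± 0.384 and 9.27% ± 0.374 of it. Slc30a4 made up 4.37% ± 0.17, 19.1% ± 2.1 and 13.6% ± 0.0791 of the ZnT sum, and Slc30a2 8.45% ± 1.78, 5.71% ± 0.456 and 15.6% ± 0.599. Ferritin summed to 266 ± 20.6, 699.7 ± 13.6 and 308 ± 6.82 CPM per kb, with the light chain making up 76.1% ± 1.83, 83.2% ± 1.53 and 78.9% ± 3.13 of it. The size of such a share within a group depends on the merged exon lengths.

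**Figure D4:**
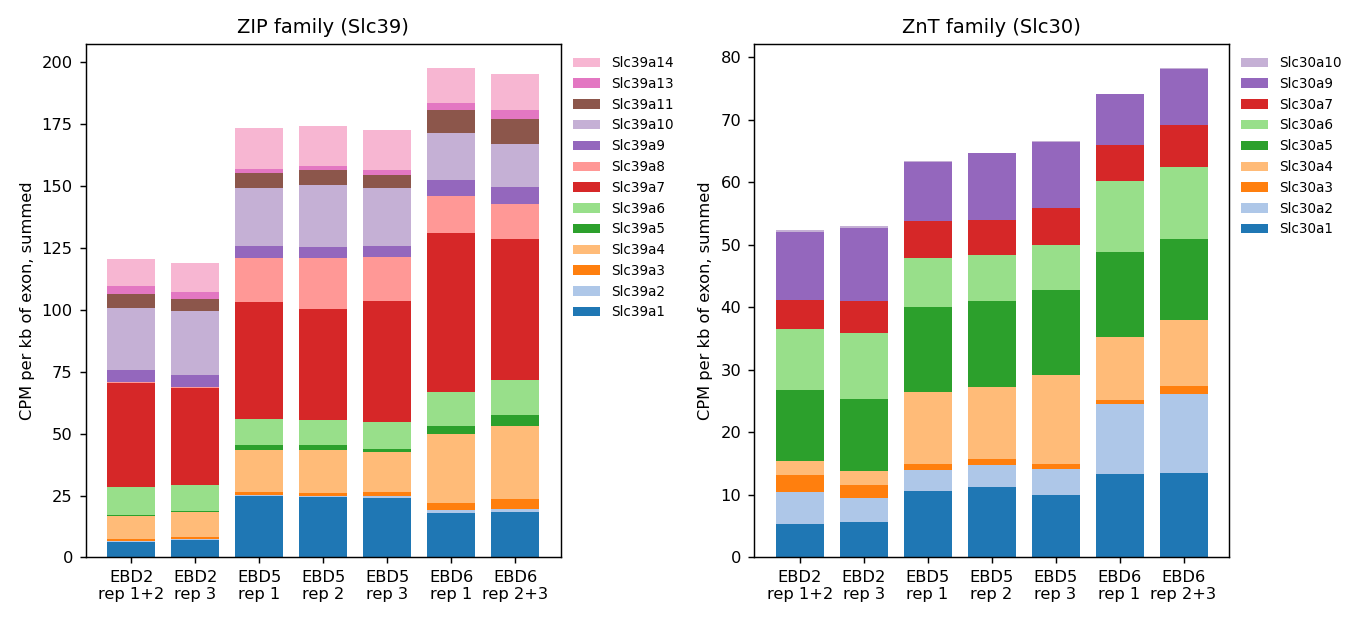
Summed level in CPM per kilobase of exon of the ZIP family (left) and the ZnT family (right) in each of the 7 samples, with 1 colour per gene. The ZIP sum is about 120 in EBD2 and 196 in EBD6, and the bands of Slc39a8 and Slc30a4 are thin in EBD2 and broad in EBD5 and EBD6.

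The genes that work with these transporters were taken from lists of known partners, and their counts are to be read against 34.9% of all genes higher and 35.1% lower at the first step, and 36.9% and 33.3% at the later one. With the medians of like GC content and length removed, 1 of the 37 called partner genes changed sign at the first step and 11 of 40 at the later one. Of 24 tested genes of iron metabolism, 10 rose and 9 fell from EBD2 to EBD5, and 12 rose and 7 fell from EBD5 to EBD6. The list's median log2 fold change was -0.05 and then 0.34. Heph and Cp encode the ferroxidases that work with ferroportin. Heph stood at 1.66 and 0.352 CPM in EBD2, at 4.13, 3.84 and 5.29 CPM in EBD5 and at 12.5 and 14.0 CPM in EBD6, rising at each step without overlap (edgeR adjusted p = 0.00128 and 0.000152). Cp had 3 counts in EBD2, 15 in EBD5 and 225 in EBD6, where it reached 7.51 ± 0.412 CPM. Trf, which encodes transferrin itself, went from 6.07 ± 2.36 to 15.1 ± 1.46 and 23.9 ± 4.44 CPM and passed the test at both steps (edgeR adjusted p = 0.000512 and 0.0042). Bmp6, which encodes a ligand that turns on hepcidin in the liver, did the same, from 5.12 ± 0.519 to 11.9 ± 0.729 and 21 ± 6.50 CPM (edgeR adjusted p = 0.00074 and 0.0011). With those medians removed, the log2 values of Bmp6 went from 1.19 to 1.87 and from 0.88 to -0.059. Ireb2, which encodes an iron regulatory protein, stood at 280.2 and 318 CPM in EBD2, at 457, 497 and 459 CPM in EBD5 and at 256 and 243 CPM in EBD6. Ncoa4, which delivers ferritin for breakdown, had the same course, at 32.1 ± 0.447, 60.3 ± 3.13 and 31.5 ± 1.48 CPM. For both of these genes EBD5 lay above every other sample, as it did for ferritin. Tfr2, a second transferrin receptor, and Hjv, a co-receptor of hepcidin control, fell from EBD2 to EBD5 (log2 -1.04 and -1.16, edgeR adjusted p = 0.0376 and 0.0114) from mean levels under 3 CPM. The value of Tfr2 was -0.36 with those medians removed.

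Zinc-binding metallothioneins were called higher in EBD6 than in EBD5. Of the 5 tested genes of zinc buffering and sensing, 2 fell from EBD2 to EBD5 and 3 did not pass the test, and all 5 rose from EBD5 to EBD6. The 2 that fell were Mt2 (log2 -0.80, edgeR adjusted p = 0.000205) and Mt3 (log2 -2.27, edgeR adjusted p = 0.000148), the latter at -1.57 with those medians removed. From EBD5 to EBD6 Mt3 had a log2 value of 2.64, and of 1.76 with those medians removed. Mt2 stood at 88.2 and 88.4 CPM in EBD2, at 58.8, 44.3 and 49.5 CPM in EBD5 and at 176 and 136 CPM in EBD6. Mt1 stood at 81.0 and 80.3 CPM in EBD2, at 77.5, 61.8 and 70.3 CPM in EBD5 and at 140 and 115 CPM in EBD6. Both were highest in EBD6, and Mt2 was lowest in EBD5, with log2 fold changes from EBD5 to EBD6 of 1.60 ± 0.12 for Mt2 and 0.85 ± 0.10 for Mt1 (edgeR adjusted p = 7.60e-07 and 1.94e-05). Slc30a1, which shares the zinc sensor Mtf1 with the metallothioneins in mouse, was higher in EBD5 than in EBD2.

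Of 11 tested copper genes, 2 rose and 2 fell from EBD2 to EBD5, and 3 rose and 4 fell from EBD5 to EBD6. The copper-exporting ATPase Atp7b stood at 14.1 and 9.51 CPM in EBD2, at 77.1, 68.4 and 68.7 CPM in EBD5 and at 29.4 and 38.6 CPM in EBD6. It thus took the course of Slc31a1, with log2 fold changes of 2.53 and -1.02 (edgeR adjusted p = 1.68e-07 and 3.81e-05). Ccs, the chaperone that hands copper to superoxide dismutase, went the other way, with -1.01 and then 1.75 (edgeR adjusted p = 4.53e-05 and 4.23e-07). Of 12 tested magnesium genes, 7 rose and 2 fell at the first step, and 5 fell and 7 did not pass the test at the next. Trpm6, a magnesium channel of absorbing epithelia, stood at 1.25 and 0.881 CPM in EBD2, at 20.9, 18.7 and 22.5 CPM in EBD5 and at 12 and 15.1 CPM in EBD6 (log2 4.18 ± 0.23 and -0.56 ± 0.14, edgeR adjusted p = 6.86e-08 and 0.00484). Of 5 tested manganese genes, 1 rose and 2 fell at the first step, and 3 rose and 1 fell at the next. Atp2c2, a secretory pathway pump, rose from 1.78 ± 0.169 to 8.26 ± 0.28 CPM at the later step (edgeR adjusted p = 5.57e-06), with a log2 value of 2.2, and of 1.53 with those medians removed.

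**Figure D5:**
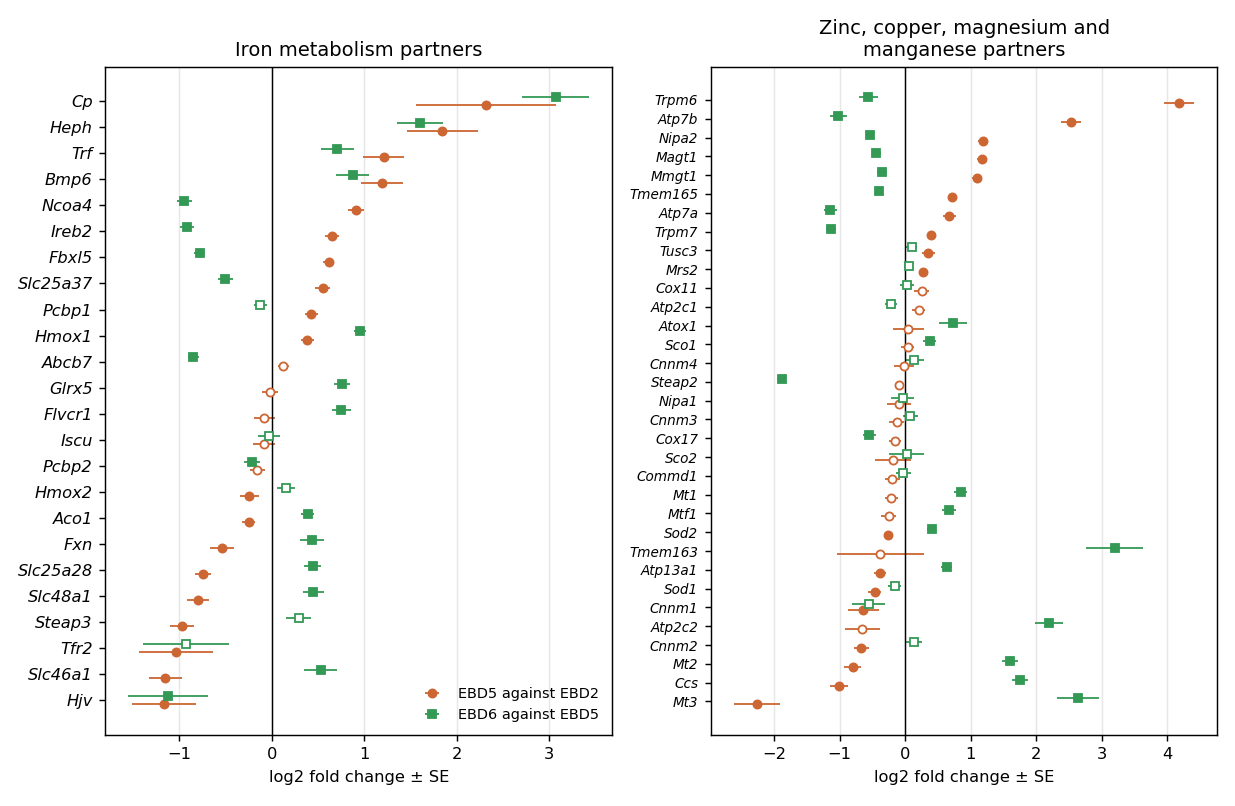
Log2 fold change ± SE from EBD2 to EBD5 (circles) and from EBD5 to EBD6 (squares) of partner genes of iron (left) and of zinc, copper, magnesium and manganese (right), with filled symbols for calls by edgeR's quasi-likelihood test. Trpm6 and Atp7b rose by 4.18 and 2.53 at the first step and fell by 0.56 and 1.02 at the next, while Mt3 fell and then rose.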

How the data were processed

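Poly(A) RNA was extracted with Trizol and made into libraries with the KAPA RNA Hyperprep kit, per the labels' protocols. The authors deposited expected counts, which apportion reads among genes and so can hold fractions. The submitters' processing notes name the build mm10 and, in no stated order, RSEM 1.3.30, STAR 2.7.10a, cutadapt 1.18, DESeq2 1.38.3 and edgeR 3.40.2. Annotation release and strand setting: not given in the sources used here. Whole numbers made up 90.9% to 94.6% of a library's values, and the rest were rounded before testing. One row that names no gene (at most 0.0157% of a library's counts) was left out. GENCODE M21 held 54165 of the 54232 IDs.

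All 7 samples entered 1 fit with edgeR 4.0.16 in R 4.3.3 (TMM, filterByExpr, 16168 genes, 4 residual degrees of freedom). Levels per kb use the merged exons of a gene. The design written at the outset held 9 libraries, and the summing followed the chi-square test of counts. Alternatives were DESeq2 1.42.0, limma-voom (limma 3.58.1), other scalings and filters, a test against a fold of 1.5, removal of GC and length bins, and each library left out. The counts of ferritin pseudogenes and Gm22133, and the removal of GC and length bins for partner genes and for the difference between the steps, were added after seeing the data. Members and lists were chosen with earlier results of these data known. All members may be named, and of each partner list up to 4 called genes per direction with the largest changes and at least 1 CPM. Limits for genes without counts cover counting error only. Each SE is the absolute log2 fold change over the square root of the F statistic of edgeR's test. It thus includes the spread between samples as edgeR estimated it. Each SD is the spread between the samples of a group.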

Additional observations from a re-analysis of the deposited data

How the results depend on the processing

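Counts of calls held within 1.5 times under every other scaling, filter, tool and left-out library tried, except the test against a fold of 1.5. That test, a stricter question by construction, called 5606, 5317 and 4918 genes for EBD5 against EBD2, EBD6 against EBD5 and EBD6 against EBD2. It called 13, 12 and 13 metal genes, 17, 18 and 18 partner genes, and 13 metal genes for the difference between the steps. It left 17 of the 32 metal genes with the same call for EBD6 against EBD5 and 18 for EBD6 against EBD2. Leaving out each library in turn gave 20 to 25 called metal genes for EBD5 against EBD2, 24 to 27 for EBD6 against EBD5 and 27 to 29 for EBD6 against EBD2. Of the calls of these comparisons, 19 of 23, 21 of 27 and 26 of 27 were kept under every alternative apart from the fold test and the removal of GC and length bins. In EBD6 against EBD2 the exception was Slc30a5. The libraries left out include EBD2 replicate 3 and EBD6 replicate 1, each of which leaves 1 sample in its group.

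Removing the medians of GC and length bins turned the log2 value of Tfrc to -0.091 for EBD5 against EBD2, and for EBD6 against EBD5 turned those of Slc39a7 (-0.31), Slc39a8 (0.15), Slc39a13 (-0.18), Slc30a4 (0.085), Slc30a9 (0.025) and Slc41a1 (-0.27). The cause was not tested. The removal also turned 4 called differences between the steps, given above. All other turned signs of metal genes belonged to values that had not passed the test. The removal of bin medians turned Slc30a3 (0.22 to -0.78), Slc30a5 (-0.049 to 0.31) and Slc11a2 (0.015 to -0.20) for EBD6 against EBD5, and Slc39a13 (0.083 to -0.33) and Fth1 (0.023 to -0.044) for EBD6 against EBD2. For EBD6 against EBD5, Slc11a2 was also at -0.017 with DESeq2 size factors, -0.074 with library sizes from protein-coding genes without mitochondrial, ribosomal protein and histone genes, -0.032 by DESeq2, -0.00065 with at least 5 CPM in at least 3 libraries and -0.0077 with the compared groups alone, Tfrc at -0.0088 with the protein-coding library sizes, and Slc30a5 at 0.0059 with no filter. Fth1 for EBD6 against EBD2 was at -0.0069 with the protein-coding library sizes, and the difference between the steps of Slc39a4 was 0.050 with no filter. Leaving out 1 library gave ranges across 0 for these genes: Slc39a6 for EBD5 against EBD2 (-0.13 to 0.017), Slc11a2 for EBD6 against EBD5 (-0.020 to 0.18), Slc39a13 (-0.013 to 0.24), Slc11a1 (-0.22 to 0.029) and Fth1 (-0.080 to 0.18) for EBD6 against EBD2, and Slc39a4 for the difference between the steps (-0.064 to 0.033).

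Deviations of same-numbered libraries of different groups had correlations from -0.105 to 0.062, and those of other pairs from -0.102 to 0.140. No pairing by number was seen. Some replicates differed by no more than sampling noise, so these correlations could not exclude a pairing. With the replicate number as a block over the 9 libraries, 24, 27 and 27 metal genes and 11512, 11678 and 11452 of all genes were called, and Slc31a2 was the 1 metal gene whose call differed (EBD5 against EBD2, edgeR adjusted p = 0.0343). The depth of the smallest library, 5454268 counts, limits Slc39a2, Slc41a2, Slc30a10 and other genes of a few CPM.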

Other observations

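Metal response elements, the short DNA motif that the zinc sensor Mtf1 binds, were counted in promoters from RefSeq (GRCm38.p6), each window running from 250 bases before a gene's start to 50 after it. The motif was searched as TGCACNC or TGCGCNC on both strands. Of the 35 genes, 29 matched an entry, with 36 windows between them. The motif was in 17 of the 36 windows, beside 25.7% of all 32851 windows. Slc30a4 and Slc30a10 held 3 each, in chr2:122702614-122702913 (minus strand) and chr1:185454598-185454897 (plus strand). Of all windows, 1.97% held 3 or more. Slc30a1, Slc30a2 and 1 of the windows of Tfrc held 2 each, and no other window held more than 1. The GATA motif, AGATAA or TGATAA on both strands, was searched in the same windows. It was in 5 of the 36, beside 18.6% of all windows. A match describes the letters in the window and was not tested against the levels.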
